A study of Mus with 5 samples.

Results

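The Hippo pathway genes described here are *Tead1*, *Yap1*, *Wwtr1*, *Lats1*, *Lats2*, *Ctgf* and *Cyr61*. They were picked by Ensembl identifier, and *Tead1* has 2 identifiers. All 8 identifiers of these 7 genes were among the 12857 genes measured. Because they were picked with their difference between the genotypes already known, their levels are given as a description, without a test.

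RNA came from mouse hearts at E14.5, ventricles and valves with the atria removed. The transgenic embryos, labelled Nkx2.5CRE;Bmp2, carried 1 *Nkx2.5* Cre allele and 1 *Bmp2* transgene, and the comparison asks how heart transcripts differ when *Bmp2* is made outside its normal field. Cre made from the *Nkx2.5* locus, active in cardiac precursors and myocardium, deletes a floxed stop cassette, after which a CAG promoter in *Rosa26* drives mouse *Bmp2* cDNA with an IRES and eGFP. The line descends from 1 ES cell clone. In the cross that the study describes for this line, the mothers were homozygous for *Nkx2.5* Cre, so every littermate would carry 1 Cre allele. The labels call the control pools only WT and do not say whether they came from that cross, so effects of the Cre allele and of the transgene cannot be told apart. There were 3 transgenic pools and 2 WT pools, each of 4 hearts. The authors left out 1 further WT pool because it clustered away from the others, so the spread among WT pools is that of the pools they kept.

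Hippo signalling is a kinase cascade that restrains organ growth. The kinases LATS1 and LATS2 phosphorylate the coactivators YAP and TAZ, which keeps them out of the nucleus. When they are not phosphorylated, YAP and TAZ bind TEAD factors on DNA and raise transcription of target genes. In the embryonic heart the pathway limits cardiomyocyte proliferation, and *Yap1* and *Tead1* are needed for the ventricular wall to grow. mRNA levels do not show the phosphorylation or location of YAP and TAZ.

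Values are counts per 1000000 reads (CPM), scaled by the authors. Since each value is a whole number of reads times a fixed step, the reads behind it could be recovered, and their totals were 10564780, 9442233 and 7931484 for the transgenic libraries, against 9351893 and 7427905 for WT. Values of a genotype are always given in the order of its pool numbers. The members rested on 235 to 2431 reads per library, where counting alone gives an error of 6.52% to 2.03%. A log2 fold change is the mean of log2(CPM + 0.5) in transgenic pools minus that in WT pools, and its standard error (SE) is from a limma fit to all 12857 genes. The added 0.5 makes a fold change understate the change of low genes.

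The transgene was read first, as a check of the labels. *Bmp2* was at 23.0, 27.1 and 23.3 CPM in transgenic hearts, against 14.1 and 10.2 CPM in WT hearts. Every transgenic pool lay above both WT pools, with a log2 fold change of 0.99 and a limma adjusted p of 0.000712. It was called in 14 of 15 other settings and missed by limma without a variance trend, at 0.143. Like the tallies of alternatives below, this counts the fit with no filter. That fit repeats the limma fit above, since the filter for low genes removed 0 genes. DESeq2, a further setting, gave *Bmp2* a log2 fold change of 0.996 but no adjusted p. These values do not separate transgene reads from endogenous ones.

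Across all genes, limma called 362 of 12857 at an adjusted p of 0.05 or less, or 2.82%, 157 (1.22%) with a higher and 205 (1.59%) with a lower level in the transgenic pools. Without transgenic pool 2 this count was 226 and with DESeq2 it was 232, both with more genes lower than higher. The balance turned in 3 settings. Without WT pool 1 it was 45 genes (36 higher, 9 lower), without WT pool 2 it was 43 (33 higher, 10 lower), and limma without a variance trend called 10, all of them higher. The pools of the 2 genotypes did not overlap for 7 of the 8 members (6 higher, 1 lower), beside 35.7% of all genes (17.7% higher, 18.0% lower). Nothing is read from this count, because the members were chosen with this contrast known. The median log2 fold change was 0.15 over the members and 0.00 over all genes, and the median size of the change was 0.18 and 0.10. Nothing is read from these medians either, for the same reason, and *Tead1* enters them with both of its identifiers.

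*Tead1* encodes a TEAD factor, the DNA-binding partner of YAP and TAZ. Its main identifier, ENSMUSG00000055320, is protein coding, with 14 transcripts on the forward strand of chromosome 7 from 112679318 to 112906805 (GRCm38). The second, ENSMUSG00000055593, spans 3848 bases from 112902960 to 112906807 on the same strand and has 1 transcript, annotated as a processed transcript, meaning one with no open reading frame. They share 3846 bases at the 3′ end of the gene. RSEM, the program the authors used to count reads, assigns a read that matches several transcripts by their estimated abundance. Reads from the shared bases could therefore have gone to either identifier, and the level of each on its own is uncertain.

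The main identifier of *Tead1* was at 196, 181 and 186 CPM in transgenic hearts, against 257 and 234 CPM in WT hearts. All transgenic pools lay below both WT pools. Means came to 188 ± 7.56 CPM (SD, n = 3) in transgenic and 245 ± 16.4 CPM (SD, n = 2) in WT hearts, and the log2 fold change was -0.39 (SE 0.06). In percent, the mean fell by 23.5%.

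The second identifier went the other way. It was at 137, 147 and 138 CPM in transgenic hearts, against 104 and 117 CPM in WT hearts. The lowest transgenic pool was 19.7 CPM above the highest WT pool. On average, transgenic hearts gave 140.4 ± 5.50 CPM (SD, n = 3) and WT hearts 111 ± 9.44 CPM (SD, n = 2), with 0.34 (SE 0.07) as the log2 fold change.

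Summing both identifiers gives a *Tead1* level that does not depend on how reads were divided between them. The sum was 333, 328 and 324 CPM in transgenic hearts, against 361 and 351 CPM in WT hearts. The genotypes still did not overlap, and the lower WT pool was 18.3 CPM above the highest transgenic pool. Transgenic hearts averaged 328 ± 4.37 CPM (SD, n = 3), WT hearts 356 ± 7.0 CPM (SD, n = 2), for a log2 fold change of -0.12 (SE 0.05). Between genotypes the mean of the main identifier fell by 57.7 CPM, that of the second was 29.8 CPM higher, and the sum fell by 27.9 CPM. The difference in total *Tead1* was thus smaller than that of either identifier alone, in CPM and on the log2 scale. In bulk tissue, fewer cells of a type and less RNA per cell cannot be told apart.

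The share of *Tead1* reads given to the second identifier shows the division directly. It was 41.2% in transgenic pool 1 (1432 of 3479 reads; exact binomial 95% interval 39.5% to 42.8%). In transgenic pool 2 it was 44.8% (43.0% to 46.6%), and in transgenic pool 3 it was 42.5% (40.5% to 44.4%). WT pool 1 gave 28.8% (27.3% to 30.3%) and WT pool 2 gave 33.4% (31.6% to 35.3%). The intervals of the transgenic pools lay above those of both WT pools. Within genotypes, the intervals of transgenic pools 1 and 2 did not overlap, and neither did those of the WT pools. Counting error is all that the intervals cover. They treat the identifier of each read as observed, although RSEM estimated the division, so they may be too narrow. The mean share was 42.8% ± 1.85 (SD, n = 3) against 31.1% ± 3.26 (SD, n = 2), a difference of 11.7 percentage points. The part of read assignment in this difference was not tested.

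**Figure D1:**
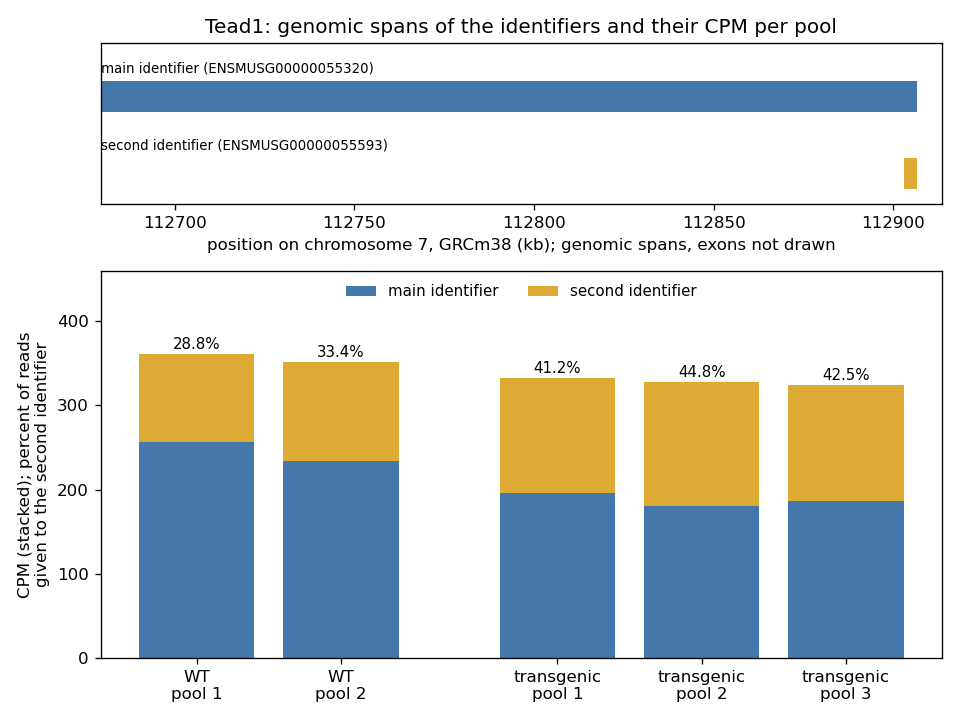
The upper panel draws the genomic spans of both *Tead1* identifiers on chromosome 7 (GRCm38, position in kb, exons not drawn). The lower panel stacks their CPM in each of the 5 pools, with the percent of *Tead1* reads given to the second identifier above each bar; the transgenic bars are lower in total and their second segment is larger.

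*Yap1* (ENSMUSG00000053110), on chromosome 9 from 7931999 to 8004638 (RefSeq, as for the genes that follow), encodes the coactivator YAP. It was at 179.9, 186 and 177 CPM in transgenic hearts, against 168 and 158 CPM in WT hearts. The transgenic pools all lay above the WT pools, by at least 8.60 CPM. The transgenic mean, 181 ± 4.93 CPM (SD, n = 3), exceeded the WT mean, 163 ± 7.21 CPM (SD, n = 2), by 11%, a log2 fold change of 0.15 (SE 0.06).

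*Wwtr1* (ENSMUSG00000027803), on chromosome 3 from 57455644 to 57575910, encodes TAZ, the paralogue of YAP. Its level was 105, 103 and 109 CPM in transgenic hearts, against 94.6 and 101 CPM in WT hearts. The genotypes were separated by only 1.95 CPM, the distance between transgenic pool 2 and WT pool 2, which is less than the SD of either group. On average, transgenic hearts gave 106 ± 2.79 CPM (SD, n = 3) and WT hearts 98.0 ± 4.74 CPM (SD, n = 2), with 0.11 (SE 0.06) as the log2 fold change. Without WT pool 1 it was 0.06.

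Within each library, the log2 ratio of *Yap1* to *Wwtr1* CPM was 0.78, 0.85 and 0.70 in transgenic hearts, against 0.83 and 0.64 in WT hearts. These overlapped between genotypes. The ratio of *Yap1* to summed *Tead1* did separate the genotypes. It was -0.89, -0.81 and -0.87 in transgenic hearts, against -1.10 and -1.15 in WT hearts, a difference of 0.27 on the log2 scale with an SD between pools of 0.04. For *Wwtr1* over summed *Tead1* the difference was 0.23, with an SD of 0.07 and no overlap. Other TEAD genes were not analysed here, and the *Tead1* sum includes the second identifier. The ratios compare the same pools and are not evidence apart from the levels.

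Upstream of the coactivators are the LATS kinases. *Lats1* (ENSMUSG00000040021), on chromosome 10 from 7681200 to 7716461, was at 52.9, 45.8 and 57.5 CPM in transgenic hearts, against 59.4 and 52.7 CPM in WT hearts. It is the 1 member whose genotypes overlapped, since WT pool 2 lay below transgenic pools 1 and 3. Its means, 52.1 ± 5.88 CPM (SD, n = 3) for transgenic and 56.0 ± 4.77 CPM (SD, n = 2) for WT hearts, had a difference smaller than the SD of either group. The log2 fold change of -0.11 (SE 0.09) was -0.02 without transgenic pool 2 or without WT pool 1, -0.18 without transgenic pool 3 and -0.19 without WT pool 2.

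*Lats2* (ENSMUSG00000021959) lies on chromosome 14 from 57689662 to 57746212 and encodes the other LATS kinase; it is also known as a transcriptional target of YAP. It was at 74.9, 74.4 and 73.4 CPM in transgenic hearts, against 63.0 and 71.2 CPM in WT hearts. The transgenic pools lay close together, whereas the WT pools were far apart, and WT pool 2 was within 2.23 CPM of the lowest transgenic pool. Transgenic hearts averaged 74.2 ± 0.752 CPM (SD, n = 3), WT hearts 67.1 ± 5.77 CPM (SD, n = 2), for a log2 fold change of 0.15 (SE 0.07). Without WT pool 1 it was 0.06, and without WT pool 2 it was 0.23. The log2 ratio of *Lats1* to *Lats2* was -0.50, -0.70 and -0.35 in transgenic hearts, against -0.08 and -0.43 in WT hearts. It overlapped between genotypes, and the WT pools differed from each other as much as the transgenic pools did.

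*Ctgf* and *Cyr61* encode secreted matricellular proteins and are widely used as readouts of YAP and TEAD activity, although other signals, TGF-beta among them, also induce *Ctgf*. *Ctgf* (ENSMUSG00000019997; *Ccn2* in RefSeq, chromosome 10 from 24595442 to 24598683) was at 105, 88.3 and 83.0 CPM in transgenic hearts, against 80.7 and 76.9 CPM in WT hearts. Transgenic pool 1 stood well above the other 4 pools, and transgenic pool 3 was 2.37 CPM above WT pool 1. Means came to 92.2 ± 11.7 CPM (SD, n = 3) in transgenic and 78.8 ± 2.64 CPM (SD, n = 2) in WT hearts, and the log2 fold change was 0.22 (SE 0.08). Without transgenic pool 1 it was 0.12.

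*Cyr61* (ENSMUSG00000028195; *Ccn1* in RefSeq, chromosome 3 from 145646971 to 145649985, reverse strand) was at 41.7, 39.4 and 39.1 CPM in transgenic hearts, against 30.8 and 31.5 CPM in WT hearts. Pools of a genotype lay close together and the genotypes were 7.64 CPM apart. On average, transgenic hearts gave 40.1 ± 1.41 CPM (SD, n = 3) and WT hearts 31.1 ± 0.519 CPM (SD, n = 2), with 0.36 (SE 0.08) as the log2 fold change. In percent the difference was 28.7%, beside a counting error of 4.79% to 6.52% per library. Leaving out any pool kept the log2 fold change between 0.33 and 0.38. The log2 ratio of *Ctgf* to *Cyr61* overlapped between genotypes, at 1.34, 1.16 and 1.09 in transgenic hearts, against 1.39 and 1.29 in WT hearts.

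**Figure D2:**
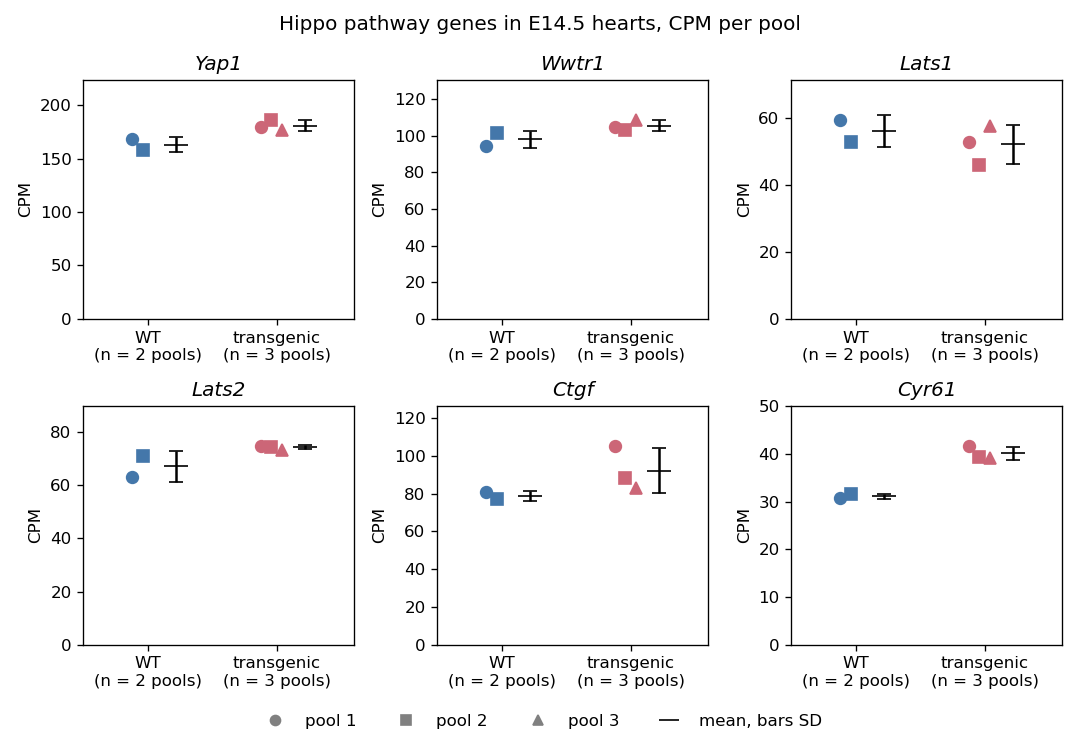
CPM of *Yap1*, *Wwtr1*, *Lats1*, *Lats2*, *Ctgf* and *Cyr61* (vertical axes, from 0) in 2 WT and 3 transgenic pools; each point is a pool, its shape gives the pool number, and the bars beside the points are mean and SD. The genotypes overlap for *Lats1* and are farthest apart relative to their spread for *Cyr61*.

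Spread between pools differed among the members. The median SD of log2 values among transgenic pools was 0.05 over the 8 identifiers and 0.09 over all genes. These medians were not matched for level, and all genes include many with fewer reads and so more counting error. Among transgenic pools, *Ctgf* and *Lats1* had SDs of 0.18 and 0.16 and *Lats2* one of 0.01. The WT pools gave another order, with 0.05 for *Ctgf* and 0.12 for both *Lats1* and *Lats2*. The summed *Tead1* level had an SD of 0.02 among transgenic and 0.03 among WT pools, less than either of its identifiers in both genotypes.

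By the root mean square difference of log2 values centred over the 5 libraries, among 11482 genes with a mean of at least 5 CPM, the 5 profiles most like the main *Tead1* identifier included *Abca2*, *Gaa* and *Dock1*, each at a distance of 0.03. *Gaa*, for example, was at 142, 133 and 137 CPM in transgenic hearts, against 179 and 167 CPM in WT hearts. *Vcam1* was among the 5 closest to the second identifier, at a distance of 0.02, with 127, 142 and 129 CPM in transgenic hearts, against 98.6 and 108 CPM in WT hearts. The identifiers of the other 6 were not paired with names, since names came only from genes the study listed as changed. As the closest of 11482 genes over 5 libraries, these profiles share the genotype difference by selection. Shared regulation was not tested.

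The wider pathway was taken from lists of core kinases and adaptors, junction and scaffold regulators, nuclear effectors, and YAP target genes, 60 genes in all, of which 7 are the genes above. Of the other 53, only 4 could be matched to an identifier, and only because the study had listed them as changed in these samples. Their calls are thus not independent evidence of a direction, and they say nothing of the rest. Of the 4, limma called 1 higher and 1 lower.

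*Ankrd1*, a YAP target that encodes a cardiac ankyrin repeat protein, was at 828, 869 and 635 CPM in transgenic hearts, against 538 and 605 CPM in WT hearts. All 3 transgenic pools were higher, transgenic pool 3 by the least. The log2 fold change was 0.43 with an SE of 0.10 and a limma adjusted p of 0.0273. This p became 0.080 without transgenic pool 1 and 0.0666 without transgenic pool 2. Without transgenic pool 3 it was 0.000178, with a log2 fold change of 0.57. The call was also lost without either WT pool, where the log2 fold change was 0.35 (WT pool 1 left out) and 0.52 (WT pool 2 left out). *Ankrd1* was called in 9 of 16 alternatives. Its lowest adjusted p, 1.44e-06, came from limma with pool number as a replicate block, although no label pairs the pools. Limma without a variance trend gave 0.302.

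*Taok2*, a kinase of the family that can activate the cascade from upstream, was at 104, 103 and 104 CPM in transgenic hearts, against 125 and 119 CPM in WT hearts. It was lower in all 3 transgenic pools, with a log2 fold change of -0.23, an SE of 0.06 and a limma adjusted p of 0.0470. The call was lost with any 1 of the 5 pools left out, at 0.0844, 0.0891 and 0.0668 without transgenic pools 1, 2 and 3 and at 0.326 and 0.207 without WT pools 1 and 2. *Taok2* was called in 7 of 16 alternatives, with adjusted p from 0.0241 to 0.326. *Amotl1*, an angiomotin that binds YAP at junctions, had a log2 fold change of -0.22 and a limma adjusted p of 0.0920, and *Dchs1*, a large protocadherin, had -0.30 and 0.0595. Neither was called, though *Amotl1* was in 1 and *Dchs1* in 3 of 16 alternatives, with adjusted p from 0.0380 to 0.384 and from 0.0263 to 0.468.

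Of 57 markers of heart cell types in 8 lists, 10 could be named, again only because the study had listed them as changed, so their directions are not independent evidence. None of the 10 was at 0 in any library. Limma called 3 of them higher and 5 lower. No gene of the lists for valve mesenchyme, red cells or leukocytes could be named.

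Of the cardiomyocyte markers, *Irx4* (ventricular) had a log2 fold change of 0.33 and *Myl7* (mainly atrial) one of 0.90, with 653, 869 and 617 CPM in transgenic hearts, against 384 and 373 CPM in WT hearts. The named endothelial genes, *Cdh5*, *Kdr* and *Tie1*, with *Cdh5* adding the most CPM (which is not per length), summed to 506, 426 and 499 CPM in transgenic hearts, against 603 and 590.2 CPM in WT hearts. The named pericyte and smooth muscle genes, *Pdgfrb*, *Rgs5* and *Myh11*, summed to 138, 138 and 157 CPM and to 188 and 185 CPM. Both sums were lower in all 3 transgenic pools. For the epicardium and fibroblast list, *Tbx18* had a log2 fold change of 0.37 and *Pdgfra* one of -0.34, and their sum overlapped between genotypes, at 189, 180.2 and 191 CPM and at 191 and 197 CPM.

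Limma adjusted p-values were 0.0134 for *Irx4*, 0.000166 for *Myl7*, 0.00476 for *Tbx18*, 0.00286 for *Kdr*, 0.0277 for *Tie1*, 0.00919 for *Pdgfra*, 0.0204 for *Myh11* and 0.0089 for *Rgs5*. *Cdh5* (0.0563) and *Pdgfrb* (0.0519) were not called, though they were in 7 and 6 of 16 alternatives, with adjusted p from 0.00978 to 0.372 and from 0.0406 to 0.331. With WT pool 1 or WT pool 2 left out, *Myl7* alone of the 8 was still called, at 0.0259 and 0.0343 (1.59e-12 to 0.152 over its alternatives). *Tie1* and *Myh11* were also lost without transgenic pool 2, at 0.0624 and 0.0662 (0.0031 to 0.280 and 0.00124 to 0.258 over their alternatives), and *Tie1* after quantile normalization, at 0.052. Limma without a variance trend gave all 8 an adjusted p of at least 0.152. For *Myh11*, DESeq2 gave no adjusted p. The part of cell composition in the levels of the Hippo pathway genes was not tested.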

How the data were processed

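PolyA RNA of 3 transgenic and 2 WT pools was sequenced by the authors as single-end Illumina reads. The submitters' processing notes name cutadapt 1.0, RSEM 1.2.19, Bowtie 0.12.9, Picard and edgeR 3.0.8 with GRCm38; the methods of the study give other versions of cutadapt and RSEM. The authors deposited CPM values relative to scaled library sizes, after leaving out genes with low values. No column of values was left unused. In each library 100% of values were whole multiples of a step, within 1e-06 reads. The step was the smallest gap between low values, since the lowest value above 0 was 7 reads in transgenic pool 1 and 3 reads in WT pool 2. That step implies library sizes of 10456517, 9314403 and 7996493 (transgenic, by pool number) and of 9458797 and 7460672 (WT).

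From these values, log2(CPM + 0.5) was compared with limma 3.58.1 in R 4.3.3 (eBayes with a variance trend, no covariates), with Benjamini-Hochberg adjustment over genes at 1 CPM or more in at least 2 libraries, a filter that removed 0 genes. On recovered reads, the quasi-likelihood and exact tests of edgeR 4.0.16 called 398 and 482 genes, and DESeq2 1.42.0 called 232. The fits were tested on simulated data. Intervals are exact binomial (scipy 1.17.1) and, as PCR copies cannot be recognised, cover counting error only. Tables and figures used Python 3.11.15, numpy 2.4.6, pandas 2.3.3 and matplotlib 3.10.9.

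The members and gene lists were chosen with earlier results of these data known. Genes named are the members, *Bmp2*, and the listed pathway genes and cell type markers that could be matched to an identifier. Also named are the overlapping pair *Zbed6* and *Zc3h11a*, and those with a symbol among the 5 profiles most like each *Tead1* identifier. Symbols and Ensembl positions were taken from the study's list of 406 identifiers (1 without a symbol), and the identifiers of *Yap1*, *Wwtr1*, *Lats1*, *Lats2* and *Ctgf* were given with the choice of members. Other positions are from the RefSeq annotation of GRCm38, matched by symbol. Gene lengths were not used here, so a ratio of 2 genes within a library is compared only between libraries and does not say which gene is expressed more. Alternatives were the tests above, no variance trend, no filter, a mean of at least 5 CPM, pseudocounts of 0.1 and 1, other scalings, a replicate block, and each pool left out. The fit with no filter repeats the main fit, and several others change it little, so the alternatives are not separate checks.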

Additional observations from a re-analysis of the deposited data

How the results depend on the processing

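For the 8 members, 80 of 80 alternative fold changes (10 each) kept their direction. In 4 of them, without a WT pool for *Lats2* and for the second *Tead1* identifier, the value moved by more than the SD between pools. The replicate block gave each member the same fold change as leaving out transgenic pool 3, so these settings are not separate checks. The second *Tead1* identifier was at 0.26 without WT pool 1 and at 0.43 without WT pool 2. The log2 fold change of summed *Tead1* was -0.14 under quantile normalization and ran from -0.14 to -0.10 with each pool left out. The difference in the share given to its second identifier ran from 9.40 to 14 percentage points with each pool left out. Rescaling and quantile normalization moved the median of all genes by -0.02 and 0.00.

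The count of 362 called genes was 232 with DESeq2, 10 by limma without the variance trend, and 43 to 464 with each pool left out. Rescaling the libraries to the same total gave 125 higher and 251 lower, beside 157 and 205. Of the 4 matched pathway genes, 2 were called; DESeq2 called 0 (4 at an unadjusted p under 0.05), limma without the variance trend 0 (3 unadjusted) and limma after quantile normalization 0 (4 unadjusted), while edgeR called 2 by quasi-likelihood and 3 by its exact test. With each pool left out, limma called 0 to 1 of the 4, with at least 3 under an unadjusted p of 0.05. The causes were not tested. With a WT pool left out, the lone WT pool is assumed to vary like the transgenic pools.

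The pool number as a replicate block gave 655 called genes. It also gave the lowest adjusted p of *Ankrd1*, *Cdh5* and *Tie1* over their alternatives, and the only call of *Amotl1*. Transgenic pool 3 has no WT pool of its number, so under the block it does not enter the fold change. Leaving that pool out with no block gave 464 called genes. Deviations of pools with the same number correlated at -0.03 (pool 1) and -0.05 (pool 2) across genes, and no label pairs them. The deviations of the WT pools mirror each other, so these values are not separate checks. Whether pools of the same number share a batch was not tested.

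Limits are the 3 and 2 pools, the 4 hearts mixed in each, the uncertain division of *Tead1* reads, and names for few other genes of the pathway.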

Other observations

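After the values of *Tead1* were seen, the 406 identifiers with positions were searched for other overlaps. There were 4 overlapping pairs, 3 of them on the same strand, and in 2 of those 3 the identifiers differed between genotypes in opposite directions. Besides *Tead1*, this was the pair *Zbed6* and *Zc3h11a* on chromosome 1, which share 41379 bases. *Zbed6* had a log2 fold change of -0.32 and *Zc3h11a* one of 0.21, and their summed CPM averaged 373 in transgenic and 385 in WT pools, with overlap between the genotypes. All 406 were listed by the study as changed, so the pairs are no sample of overlapping genes, and how reads were divided within them was not tested.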
